A study of Sus scrofa with 4 samples.

Results

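The hypoxia and glycolysis genes described here are the listed genes of the response to low oxygen and of sugar breakdown in meniscus cells of the pig, Sus scrofa. The meniscus is a wedge of fibrocartilage in the knee joint. Of 32 listed symbols, 29 stood as symbols in the gene column of the deposited tables, out of 21280 features in all. PKM, a pyruvate kinase, was found by its gene identifier alone and is given apart from the counts, and SLC2A1 and SLC2A3 were not matched and are not analysed here. Single cells digested from red and white zone tissue of lateral and medial menisci were profiled with the 10x Genomics 3' chemistry, in 4 libraries, 1 for each zone of each side. Vessels reach the outer, red zone of a meniscus, while the inner, white zone is known as avascular. Each zone therefore had 2 libraries, a lateral and a medial one, with no treatment or genotype. The labels name no animals, strain or age, so the p-values describe the spread between these libraries, and side and animal cannot be told apart.

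When oxygen is scarce, prolyl hydroxylases of the EGLN family no longer mark the HIF alpha subunits, HIF1A and EPAS1, for degradation by the VHL complex. The stabilised subunits pair with ARNT and turn on genes for glucose use, vessel growth, acid handling and mitochondrial turnover. HIF1A is regulated mostly at the protein level, which RNA counts do not show. Cartilage has few or no vessels, and its chondrocytes are known to live mainly from glycolysis.

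After filtering, 5589 cells were kept from the lateral red, 6803 from the medial red, 7382 from the lateral white and 7807 from the medial white library. Their totals ran from 9283282 to 14902274 unique molecular identifier (UMI) counts, each standing for 1 captured transcript, with a median of 1455 to 1617 UMIs per cell. Levels are given in counts-per-million (CPM) of the UMIs of a library or class. The libraries of a pair shared 10 to 20 cell barcodes. Cartilage markers set the zones apart: the 11 chondrocyte markers found in the files (COL2A1, ACAN and others) summed to 1142 and 602.5 CPM in the red and to 11209 and 11018 CPM in the white zone. The 12 endothelial markers (PECAM1, VWF and others) summed to 967.5 and 1097 CPM in the red against 146.4 and 287.9 CPM in the white zone, so neither zone was free of vessel cells. In such sums over all cells, fewer cells of a type and less RNA per cell cannot be told apart. Because 1 UMI is counted per 3' end, a level is not scaled by transcript length, and the levels are set side by side within a gene.

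Between zones, the transcripts of glycolytic enzymes and of many HIF targets were more abundant in the white zone. The 29 genes together took 5382 CPM in the lateral red and 4653 CPM in the medial red library, against 11543 and 9016 CPM in the white libraries. Without GAPDH, the most abundant of them, the sums were 3508 and 3035 CPM in the red and 5742 and 5655 CPM in the white zone. Of 28 members with enough counts for the edgeR test, 17 were higher in the white zone, where 17.8% of all 12463 genes tested were higher. Another 2, EPAS1 and CA12, were lower, against 22% of all genes, and 9 did not pass. Genes called in either direction were 39.8% of those tested. The median log2 fold change of the members was 1.05, and that of all genes -0.01. ALDOC, an aldolase, had 1 to 3 UMIs per library and was not tested.

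**Figure D1:**
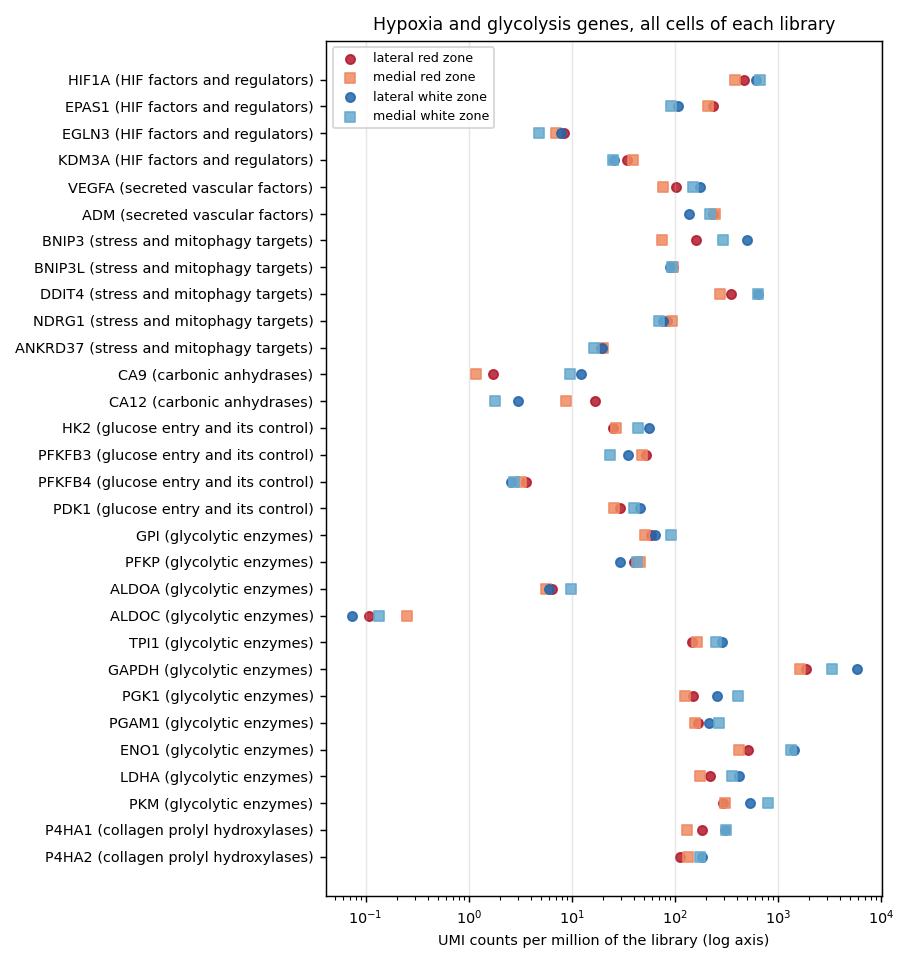
Level of each hypoxia and glycolysis gene over all cells of a library, in CPM on a log axis, with 1 point per library (circles lateral, squares medial, reds for the red zone and blues for the white zone) and the role of the gene in parentheses. The white zone points of GAPDH, ENO1, BNIP3 and CA9 lie to the right of both red zone points, and those of EPAS1 and CA12 to the left.

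The scaling matters for how these changes are read. The edgeR fit corrects for composition with TMM factors, which were 1.17 and 1.20 in the red and 0.809 and 0.879 in the white libraries. With library totals in place of these factors, the median of all genes moved to -0.49, and calls over all genes went from 2216 higher and 2744 lower to 914 higher and 5175 lower. With those totals, 14 members were higher and 4 lower. Fold changes are relative to the TMM scaling. Over all cells they therefore lie above the white to red ratio of the CPM values, while in endothelial-like cells, where TMM moved the median of all genes from 0.14 to 0.01, they lie somewhat below it.

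The 2 HIF alpha subunits differed in opposite directions. HIF1A (ENSSSCG00000005096, chromosome 1, 190625436 to 190673926, Sscrofa11.1) stood at 465.8 CPM in the lateral red, 378.6 in the medial red, 609.8 in the lateral white and 663.6 in the medial white library. Both white libraries lay above both red ones, by 1.09 ± 0.23 (SE) on the log2 scale (edgeR adjusted p = 0.00667). This call was lost with library totals (0.60, adjusted p = 0.055) and without the medial red library (0.92, adjusted p = 0.11). EPAS1, the subunit known for its role in vessel cells (ENSSSCG00000008443, chromosome 3, 94167759 to 94253662), stood at 233.3 and 208.6 CPM in the red and 107.4 and 92.2 CPM in the white zone. It was lower in the white zone by a log2 change of -0.66 ± 0.18 (edgeR adjusted p = 0.0197), without overlap of the zones. Leaving out either red library or the medial white library lost that call (edgeR adjusted p from 0.085 to 0.22). With library totals the EPAS1 change was larger, -1.15. EGLN3, the oxygen-dependent hydroxylase that HIF itself induces, had 4.8 to 8.4 CPM in the 4 libraries, and KDM3A, a histone demethylase, 25.0 to 39.5 CPM, and neither passed the test.

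Among the secreted vascular factors, VEGFA, the main growth signal for vessels, had 101.5 and 77.2 CPM in the red and 176.0 and 150.6 CPM in the white zone. It was higher in the white zone by 1.37 ± 0.18 (log2, edgeR adjusted p = 0.000648), and the zones did not overlap. ADM encodes adrenomedullin, a vasodilating peptide. Its levels over all cells were 232.9 and 242.2 CPM in the red and 136.6 and 217.3 CPM in the white zone, and its fitted log2 change was 0.03 ± 0.21 (edgeR adjusted p = 0.93), but with library totals it was -0.46. The cell classes described further on moved apart for this gene.

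BNIP3 and DDIT4 changed among the stress and mitophagy targets. BNIP3, a mitochondrial outer membrane protein that marks mitochondria for removal (ENSSSCG00000024388, chromosome 14, 140362123 to 140371951), had 159.0 CPM in the lateral red, 74.7 in the medial red, 502.2 in the lateral white and 295.3 in the medial white library. The white zone exceeded the red by 2.31 ± 0.21 on the log2 scale (edgeR adjusted p = 0.000115), and within each zone the lateral library was the higher one. DDIT4, an inhibitor of mTOR complex signalling, had 352.8 and 270.6 CPM in the red and 644.6 and 643.7 CPM in the white zone, a log2 change of 1.55 ± 0.23 (edgeR adjusted p = 0.00119). BNIP3L, the paralog of BNIP3, stayed between 90.3 and 96.7 CPM in the 4 libraries. NDRG1 had 70.1 to 94.4 CPM and ANKRD37 16.5 to 19.8 CPM, and these 3 genes did not pass the test.

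The carbonic anhydrases, surface enzymes that buffer acid, went opposite ways. CA9, a gene with very low activity in most tissues at normal oxygen (ENSSSCG00000051368, chromosome 1, 236393727 to 236400994), had 1.7 and 1.2 CPM in the red zone (16 and 14 UMIs) and 12.4 and 9.6 CPM in the white zone (170 and 143 UMIs). It had the largest rise of the members, 3.41 ± 0.29 on the log2 scale (edgeR adjusted p = 9.26e-05). CA12 had 16.9 and 8.7 CPM in the red and 3.0 and 1.8 CPM in the white zone, a log2 change of -1.89 ± 0.27 (edgeR adjusted p = 0.000992). Without the lateral red library the CA12 call was lost (-1.34, edgeR adjusted p = 0.061).

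**Figure D2:**
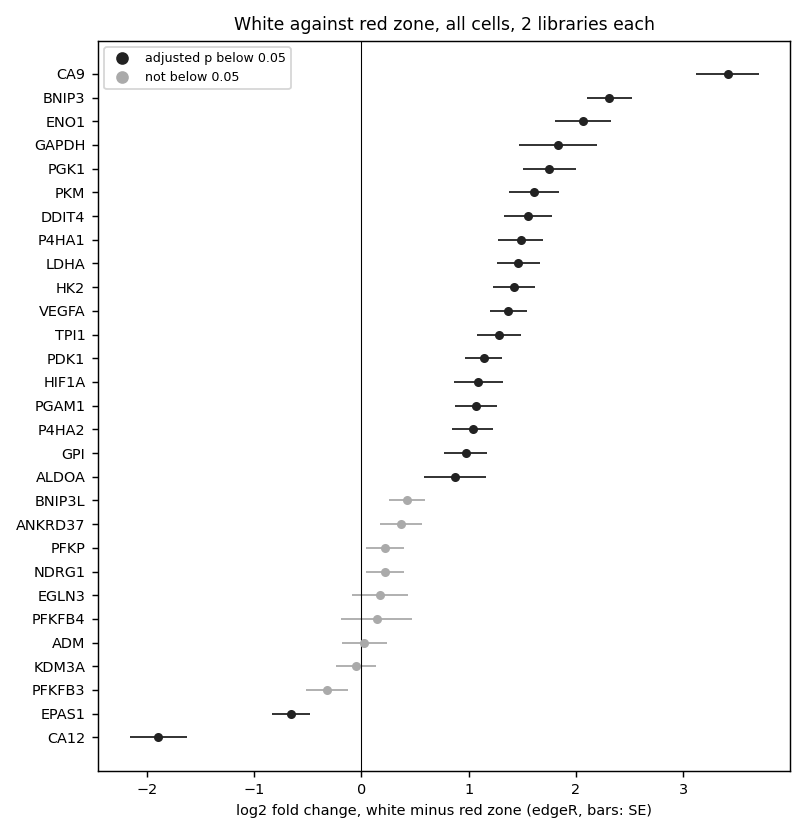
Log2 fold change between white and red zone over all cells for the tested members and PKM, ordered by size, with the standard error from edgeR as bars (2 libraries a zone, meniscus as second term). Black points passed an adjusted p of 0.05: they run from 3.41 for CA9 to 0.87 for ALDOA, and below 0 lie EPAS1 and CA12.

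Of 9 glycolytic enzymes tested, 8 were higher in the white zone and PFKP, a phosphofructokinase, was not called (29.1 to 45.5 CPM). GAPDH, the dehydrogenase of the middle of the pathway (ENSSSCG00000000694, chromosome 5, 64129678 to 64135194), had 1875 CPM in the lateral red, 1618 in the medial red, 5800 in the lateral white and 3362 in the medial white library. Its log2 change was 1.83 ± 0.36 (edgeR adjusted p = 0.00508), and without the medial red library the call was lost (1.78, adjusted p = 0.061). The 2 white libraries lay far apart, but both were above both red ones.

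ENO1, enolase, had 514.0 and 420.1 CPM in the red and 1429 and 1337 CPM in the white zone, with a log2 change of 2.06 ± 0.26 (edgeR adjusted p = 0.000559). PGK1, the first ATP-yielding step, had 148.7 and 124.9 CPM against 258.0 and 413.3 CPM, a log2 change of 1.75 ± 0.25 (edgeR adjusted p = 0.00107). LDHA, which turns pyruvate into lactate, had 218.7 and 176.5 CPM against 414.9 and 357.6 CPM, a log2 change of 1.46 ± 0.20 (edgeR adjusted p = 0.000863). For all 3 enzymes both white libraries lay above both red ones. TPI1, triosephosphate isomerase, had 144.9 and 164.1 CPM in the red and 286.7 and 249.8 CPM in the white zone (log2 change 1.29, edgeR adjusted p = 0.00188). PGAM1, a phosphoglycerate mutase, had 165.9 and 156.9 CPM against 214.4 and 269.1 CPM (log2 change 1.06, edgeR adjusted p = 0.00355). GPI, the isomerase at the second step, had 58.3 and 51.1 CPM against 63.6 and 91.1 CPM (log2 change 0.97, edgeR adjusted p = 0.00607). The margin between zones was narrow for GPI in the lateral pair, and its call was lost with library totals (edgeR adjusted p = 0.073). Without the medial red library the calls of GPI and PGAM1 were lost as well (adjusted p = 0.067 and 0.051).

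ALDOA, an aldolase, had only 5.6 to 6.4 CPM in the red and 6.0 and 9.8 CPM in the white zone, so the zones overlapped. Its call (log2 change 0.87, edgeR adjusted p = 0.042) was lost with DESeq2, with library totals and without either red or the medial white library (adjusted p from 0.12 to 0.30). PKM, outside the rule, had 293.4 and 309.1 CPM in the red and 532.4 and 799.7 CPM in the white zone (log2 change 1.61 ± 0.23, edgeR adjusted p = 0.00119). GAPDH, PGK1, LDHA and other enzymes of this pathway have processed copies in mammalian genomes. How reads shared with such copies were counted is not given in the sources used here, so their levels carry that uncertainty.

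At the entry to glycolysis and its control, 2 of 4 tested genes were higher in the white zone. HK2, the inducible hexokinase, had 25.0 and 26.8 CPM in the red and 55.5 and 44.0 CPM in the white zone (log2 change 1.42 ± 0.20, edgeR adjusted p = 0.000904). PDK1, a kinase that keeps pyruvate out of the mitochondria, had 29.2 and 25.5 CPM against 45.3 and 40.4 CPM (log2 change 1.14 ± 0.17, edgeR adjusted p = 0.00143). PFKFB3 and PFKFB4, which set the level of the activator of phosphofructokinase, were not called. Their fitted log2 changes were -0.32 and 0.14.

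Both collagen prolyl 4-hydroxylase subunits, which need oxygen to stabilise the collagen helix, were higher in the white zone. P4HA1 had 183.2 and 132.4 CPM in the red and 307.1 and 312.6 CPM in the white zone (log2 change 1.48 ± 0.21, edgeR adjusted p = 0.000951). P4HA2 had 112.7 and 134.4 CPM against 183.0 and 176.6 CPM (log2 change 1.04 ± 0.19, edgeR adjusted p = 0.00368). The zones overlapped for neither gene. Without the lateral red library the P4HA2 call was lost (adjusted p = 0.052).

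Other genes of these pathways were read from lists chosen beside the members, and their counts stand against the 17.8% of all genes that were higher and the 22% that were lower. Of 15 tested genes of the oxygen-sensing machinery, such as ARNT and VHL, 1 was higher in the white zone and 1 lower. These were CITED2, which competes with HIF for its coactivators (79.9 and 75.8 CPM red, 105.6 and 120.9 CPM white, log2 change 1.03), and SIAH1, a ubiquitin ligase (38.6 and 39.1 CPM red, 14.5 and 20.7 CPM white, log2 change -0.67). The median of this list was 0.21. Of 39 other hypoxia-response genes, 19 were higher and 6 lower, with a median of 0.42. GBE1, the glycogen branching enzyme, rose from 53.0 and 48.5 to 237.3 and 208.6 CPM (log2 change 2.62). MT1X, a metallothionein with near-identical copies that make its count uncertain, had a log2 change of 3.49. In contrast STC1, a secreted glycoprotein, had 129.2 and 150.8 CPM in the red and 7.2 and 15.4 CPM in the white zone (log2 change -3.22). ANGPTL4, an inhibitor of lipoprotein lipase, had a log2 change of -2.91. STC1 was also among the 10 genes that most set endothelial-like cells apart from the other classes, and these cells were fewer in the white zone. What part that had in its change was not tested.

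Of 31 other glycolysis and pyruvate genes, 8 were higher and 5 lower in the white zone, with a median of 0.17, so the share called was near that of all genes. SLC2A5, a fructose carrier, rose from 6.8 and 1.4 to 64.7 and 79.6 CPM (log2 change 4.79). SLC16A3, the lactate exporter, rose from 11.4 and 4.2 to 39.7 and 34.0 CPM (log2 change 2.85). The PDK family divided: PDK3 was higher by 1.27, while PDK4, known as the isoform of fasting and fat use, had 85.6 and 133.2 CPM in the red and 1.9 and 2.5 CPM in the white zone (log2 change -5.12). Among 7 pentose phosphate genes none was higher and 1, RPIA, was lower (log2 change -1.58), with a list median of -0.17. Of 41 oxidative phosphorylation subunits, 12 were higher and none lower, with a median of 0.37. These included UQCR10 (0.88), COX7C (1.10), NDUFB2 (0.79) and NDUFA13 (0.87). NDUFB2 had 58.1 and 65.4 CPM in the red and 64.1 and 89.0 CPM in the white zone, so the zones overlapped. UQCR10 had 51.9 and 66.5 CPM against 67.5 and 87.6 CPM, a narrow margin. The median of all genes was -0.49 with library totals, and the part of this scaling in the calls of the list was not tested. All these calls are from edgeR at an adjusted p below 0.05 over all genes.

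Between the menisci, 0 of 28 members differed by the edgeR test, where 0.0642% of all genes, 8 of 12463, were called, 0.016% higher and 0.0481% lower in the medial meniscus. At an unadjusted p below 0.05 there were 2 members, BNIP3 and CA12, and DESeq2 called 1 member lower in the medial meniscus. BNIP3 had a medial minus lateral log2 change of -1.01 ± 0.20 (edgeR adjusted p = 0.27), which was lower medially in both zones. CA12 had -0.94 ± 0.26 (adjusted p = 0.47), also lower medially in both zones. GAPDH had -0.58 ± 0.35 (adjusted p = 0.81). Each of these 3 changed sign without 1 of the lateral libraries. Those fits had no zone term, so medial cells of both zones stood against lateral cells of 1 zone. Tests on simulated libraries of this size recovered 45 of 95 genes with a 2-fold and 100 of 105 with a 4-fold difference between menisci, so differences of about 2-fold could be missed.

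Cells were then grouped by counts of markers that are not members. The classes were endothelial-like, mural-like (the contractile cells around vessels), myeloid-like, fibroblast-like, fibrochondrocyte-like (COMP, CILP, CILP2, OMD, FMOD, CHAD) and chondrocyte-like, and cells without enough markers of 1 list were left unassigned. Chondrocyte-like cells made up 50.2% and 34.2% of the lateral and medial white library and 1.7% and 0.6% of the red ones. Fibroblast-like cells made up 17.4% and 28.8% of the red and 0.4% and 1.1% of the white libraries. Their rule allowed at most 1 detected chondrocyte marker, and such markers were far more abundant in the white zone. What part the rule had in these shares was not tested. No member was among the 10 leading genes of any class, and each class had at least 2 of its own markers there and none of another. The classes were cut by these same markers, so their place there is no separate check of the classes. Because classes were cut from marker counts they are ranges: 24.1% of fibrochondrocyte-like and 23.8% of chondrocyte-like cells had just the minimum number of markers. This share was largest in mural-like cells, 36.8%, and was 25.3% in endothelial-like, 24.7% in fibroblast-like and 5.4% in myeloid-like cells.

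The members followed cell class as well as zone. Counts were summed per library and class where a library held at least 50 cells of the class, and each class was set against the mean of the others in edgeR with the library as a term. As designed, that mean included T or NK and B or plasma cell sums from a single library, which moved the median of all genes to between 0.31 and 0.57. A second fit with the 6 classes alone, added after the data were seen, had medians between -0.14 and 0.05. Genes are named here only where both fits called them in the same direction, with values from the second. These comparisons share their sums and are not independent.

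Chondrocyte-like cells had 18 members higher and 0 lower in the first fit, where 19.4% of all genes were higher and 3.97% lower (23.3% in either direction), and 15 members were higher in both fits. The second fit called 33.7% of all genes. Among them were P4HA2 (log2 difference 1.78), BNIP3 (2.08), GAPDH (1.77), P4HA1 (1.57), ENO1 (1.46), PDK1 (1.37), DDIT4 (1.25), PGK1 (1.13) and HIF1A (0.94). CA9 was higher by 2.09 ± 0.41 (edgeR adjusted p = 0.00029). Shares of cells were taken after thinning to 1000 UMIs, which leaves out cells with fewer, while unthinned shares use all cells. With each cell thinned to 1000 UMIs, a CA9 UMI was found in 1.6% of 3493 and 1.7% of 2507 chondrocyte-like white zone cells (95% exact intervals 1.2 to 2.0% and 1.2 to 2.3%; unthinned 3.2% and 3.1%), and in 0 of 78 and 0 of 161 endothelial-like ones, which allows up to 3.8% and 1.9% by the limit of 3 counts (95% exact upper bounds 4.6% and 2.3%). These endothelial groups were too small to place CA9 above or below the chondrocyte share. In the larger red zone groups, 0 of 501 and 0 of 701 endothelial-like cells had one, which allows up to 0.60% and 0.43% by the same limit (95% exact upper bounds 0.73% and 0.52%). Red zone chondrocyte-like cells had 1 of 92 and 0 of 33, and fibrochondrocyte-like cells 2 of 687 and 0 of 523. Within the red zone these counts therefore do not set the classes apart. In the medial white library 2 of 44 myeloid-like cells had a CA9 UMI. Such intervals and limits cover counting error only.

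Fibrochondrocyte-like cells had 18 members higher and 0 lower in the first fit (19.6% of all genes were higher and 3.63% lower, 23.3% in either direction), and 13 were higher in both. The second fit called 32.7% of all genes. BNIP3 (1.69), P4HA1 (1.15), PDK1 (1.03), PGK1 (0.89) and HIF1A (0.81) were among these 13. GAPDH in the order lateral red, medial red, lateral white, medial white was at 3375, 1827, 4533 and 2653 CPM in these cells and at 5190, 2890, 6806 and 4595 CPM in chondrocyte-like cells. In every library chondrocyte-like cells had the higher GAPDH level. The red zone values of chondrocyte-like cells rest on 96 and 41 cells, and the 41 did not enter the fits.

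Endothelial-like cells carried another set. In the first fit 6 members were higher and 7 lower, where 18.4% of all genes were higher and 4.86% lower (23.3% in either direction). Both fits shared 5 higher and 7 lower members, and the second fit called 41.2% of all genes. EPAS1 was at 648.2, 539.5, 520.4 and 505.2 CPM in endothelial-like cells of the lateral red, medial red, lateral white and medial white library, against 58.5 to 93.2 CPM in fibrochondrocyte-like cells. Its log2 difference was 2.23 ± 0.16 (edgeR adjusted p = 9.16e-12). EGLN3 (2.34), NDRG1 (0.86), ADM (0.83) and PFKP (0.45) were the other higher genes. The lower ones were P4HA2 (-1.49), P4HA1 (-1.40), BNIP3 (-1.24), LDHA (-1.23), PGK1 (-1.12), TPI1 (-1.04) and GAPDH (-0.87). With library totals in the first fit, LDHA and TPI1 alone of these 7 stayed called. Without the lateral red library ADM and PFKP lost their calls, and each of BNIP3, GAPDH and P4HA1 lost its call without at least 1 library. The higher ADM level was not shared by all libraries. In the medial white library ADM was at 153.1 CPM in endothelial-like, 220.9 in fibrochondrocyte-like and 220.7 in chondrocyte-like cells. In the lateral white library it was at 170.5, 141.5 and 129.6 CPM in that order.

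Mural-like cells shared the high EPAS1 level, at 615.7, 510.8, 455.7 and 361.1 CPM in the same library order (log2 difference 2.01 ± 0.16, edgeR adjusted p = 2.72e-10), and ENO1 was lower in them (-0.93). In the first fit the ENO1 call was lost with library totals and without the library term (edgeR adjusted p = 0.17 and 0.35). In the first fit they had 4 members higher and 1 lower, where 17.6% of all genes were higher and 4.12% lower (21.7% in either direction, and 30.9% in the second fit). Fibroblast-like cells had 6 members higher and 0 lower in the first fit, where 17.4% of all genes were higher and 3.19% lower (20.6% in either direction, and 21.2% in the second fit). Higher in both were CA12 (3.17), P4HA2 (1.30), HK2 (0.89), the inducible hexokinase, and ADM (0.88). Without the lateral red library HK2 and ADM lost their calls. CA12 had 85 and 64 UMIs in fibroblast-like cells of the red libraries, or 48.9 and 18.03 CPM. Of the 6 classes of the second fit, fibroblast-like cells were the most reduced in number in the white zone. The rule of that class allowed at most 1 chondrocyte marker. Myeloid-like cells had 4 members higher and 5 lower in the first fit (19.1% and 5.84% of all genes, 25% in either direction, and 50.5% in the second fit). In both fits PFKFB4 (1.73), ANKRD37 (1.23) and PFKFB3 (0.89), the kinase known for its role in activated immune cells, were higher. EPAS1 (-2.86), HIF1A (-1.79), P4HA2 (-1.72), BNIP3 (-1.28) and GAPDH (-1.002) were lower. PFKFB4 had only 6 and 14 UMIs in myeloid-like cells of the red and 0 and 0 in those of the white libraries. ANKRD37 was at 52.0 and 41.9 CPM in the red zone. In the white zone it was at 7.2 and 0 CPM, below the 40.4 and 49.7 CPM of endothelial-like cells there. Under the stricter class rule only HIF1A stayed called lower in the first fit, and P4HA2 turned to 0.029. With library totals BNIP3 and GAPDH lost their calls, and without the library term BNIP3, GAPDH, PFKFB4 and ANKRD37 did. DESeq2 did not call PFKFB4 or ANKRD37, and ANKRD37 was also lost without either red library and BNIP3 and GAPDH without the lateral white library. HIF1A was at 124.0 to 334.4 CPM in myeloid-like cells and at 483.5 to 715.5 CPM in fibrochondrocyte-like cells, without overlap.

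**Figure D3:**
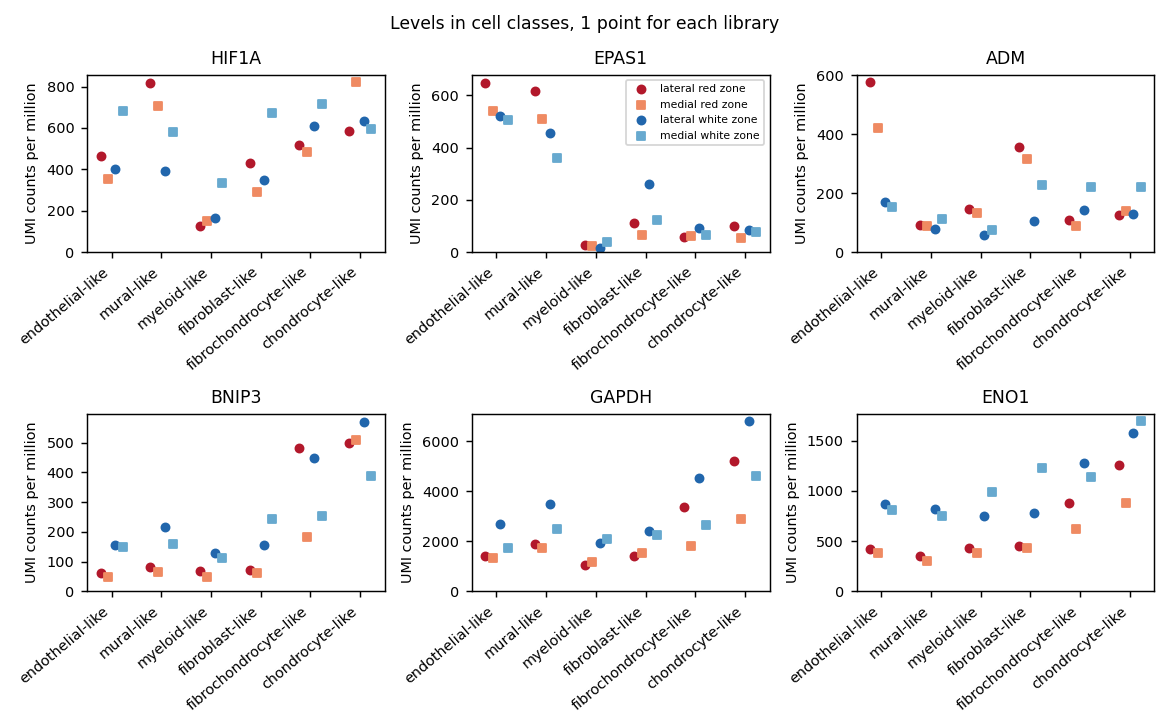
Level of 6 members in the cell classes, in CPM from counts summed over the cells of a class, with 1 point per library (circles lateral, squares medial, reds for the red zone and blues for the white zone). EPAS1 is at 361.1 to 648.2 CPM in endothelial-like and mural-like cells and at 14.5 to 260.2 CPM in the other classes, and ADM in endothelial-like cells is at 577.0 and 422.4 CPM in the red but 170.5 and 153.1 CPM in the white zone.

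Comparing zones within a class leaves out the change in the number of cells of each class. Only endothelial-like, mural-like, myeloid-like and fibrochondrocyte-like cells had at least 50 cells in every library. White zone cells of the first 3 classes also held many chondrocyte transcripts. The summed chondrocyte markers were at 3096 and 1382 CPM in endothelial-like, 4706 and 5486 CPM in mural-like and 1359 and 1923 CPM in myeloid-like cells of the white zone. In the red zone these sums were 33.4 to 238.1 CPM. The zones were therefore also compared in cells of these classes without any chondrocyte marker UMI, an alternative added after the data were seen. These were 74.1% and 74.0% of endothelial-like, 59.0% and 71.6% of mural-like and 74.0% and 78.6% of myeloid-like white zone cells.

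ADM fell in white zone endothelial-like cells. It was at 577.0 CPM in the lateral red (640 UMIs), 422.4 in the medial red (801 UMIs), 170.5 in the lateral white (38 UMIs) and 153.1 in the medial white library (77 UMIs). Both red values lay far above both white ones, and the log2 change was -1.72 ± 0.24 (edgeR adjusted p = 0.00209). In endothelial-like cells without chondrocyte marker UMIs the levels were 578.0, 447.0, 224.7 and 156.9 CPM in that order, with a log2 change of -1.63 ± 0.23 (adjusted p = 0.00286), so the difference was of similar size. With cells thinned to 1000 UMIs, ADM was found in 36.9% and 29.2% of red zone and 20.5% and 9.3% of white zone endothelial-like cells (unthinned 38.4%, 42.1%, 20.3% and 19.4%). The thinned shares rest on 501 of 765, 701 of 906, 78 of 143 and 161 of 242 cells, and the unthinned ones on all cells. Over all alternatives the log2 change ran from -1.92 to -1.57 with edgeR or DESeq2 adjusted p up to 0.0076. The class pools endothelial cells of all vessel types, and whether the mix of types differed between zones was not tested.

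Of 23 members tested in endothelial-like cells, 3 were higher in the white zone and ADM was lower, where 6.65% of all 7036 genes were called, 2.87% higher and 3.78% lower. BNIP3 (62.2 and 46.9 CPM red, 157.0 and 149.2 CPM white, log2 change 1.40), P4HA1 (55.9 and 63.3 CPM red, 206.4 and 137.2 CPM white, 1.34) and ENO1 (421.0 and 381.3 CPM red, 870.4 and 807.5 CPM white, 0.95) were the higher ones. In cells without chondrocyte marker UMIs none of these 3 passed (log2 changes 0.99, 1.02 and 0.67, edgeR adjusted p = 0.062, 0.061 and 0.091), where 6.75% of genes were called. DESeq2 called 0 members higher. HIF1A, EPAS1, VEGFA, GAPDH and LDHA were not called. LDHA was at 111.8 and 117.1 CPM in the red and 233.3 and 204.8 CPM in the white zone (log2 change 0.80, edgeR adjusted p = 0.067), and VEGFA at 51.4 and 43.2 CPM against 125.6 and 75.6 CPM (0.90, adjusted p = 0.087), both without overlap. GAPDH had 1413 and 1329 CPM against 2696 and 1722 CPM (0.54, adjusted p = 0.35). EPAS1 had a log2 change of -0.32 ± 0.24 here, and the lower level over all cells went with the fall in endothelial-like cells from 13.7% and 13.3% to 1.9% and 3.1% of the cells and in mural-like cells from 10.4% and 9.6% to 1.1% and 1.3%. The part of these cell numbers in its change was not tested.

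In mural-like cells 9 of 23 members were higher in the white zone and 0 lower, where 9.38% of 6577 genes were called, 4.67% higher and 4.71% lower. The 9 were P4HA2 (log2 change 1.62), BNIP3 (1.53), ENO1 (1.41), TPI1 (1.29), GPI (1.13), DDIT4 (1.10), PGK1 (1.09), P4HA1 (1.04) and VEGFA (0.89). BNIP3 was at 80.4 and 64.0 CPM in the red and 215.1 and 159.3 CPM in the white zone, and ENO1 at 354.1 and 306.5 CPM against 824.4 and 754.1 CPM. P4HA2 was at 42.5 and 55.4 CPM against 117.8 and 154.0 CPM, and P4HA1 at 111.9 and 94.4 CPM against 194.6 and 185.9 CPM. In both prolyl hydroxylase genes, as in BNIP3 and ENO1, the zones did not overlap. TPI1 was at 134.1 and 131.0 CPM against 266.3 and 318.6 CPM, GPI at 79.5 and 49.9 CPM against 133.1 and 116.8 CPM and PGK1 at 175.7 and 148.2 CPM against 245.8 and 377.1 CPM. DDIT4 was at 205.2 and 204.3 CPM against 291.9 and 520.4 CPM and VEGFA at 112.8 and 74.9 CPM against 158.7 and 148.7 CPM. These too lay apart by zone, although the white zone values rest on 22 to 161 UMIs a library. In cells without chondrocyte marker UMIs, 49 and 73 of them in the white libraries, only TPI1 passed (131.8 and 132.5 CPM red, 222.2 and 365.1 CPM white, log2 change 1.11, edgeR adjusted p = 0.019), where 3.77% of genes were called. The change of BNIP3 was then 0.42 and that of DDIT4 -0.01. With the stricter class rule 0 of the 9 passed, and DESeq2 called 1. HIF1A was not called, with 815.4 and 706.5 CPM in the red and 394.3 and 578.9 CPM in the white zone, values that did not overlap.

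In myeloid-like cells 0 of 22 members passed the edgeR test, where 2.6% of 5387 genes were called (1.43% higher and 1.17% lower), and 8 had an unadjusted p below 0.05. DESeq2 also called 0, and in cells without chondrocyte marker UMIs 0 of 21 passed (1.36% of genes). ANKRD37 was at 52.0 and 41.9 CPM in the red zone (47 and 45 UMIs), while the white libraries held 1 and 0 UMIs. ADM was at 145.1 and 132.2 CPM in the red and 57.8 and 74.3 CPM in the white zone, with 8 UMIs in each white library.

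In fibrochondrocyte-like cells, the only matrix class tested, 4 of 26 members were higher and 1 lower in the white zone, where 10.8% of 8645 genes were called, 4.49% higher and 6.32% lower. HK2 was at 27.8 and 21.3 CPM in the red and 59.0 and 46.8 CPM in the white zone (log2 change 1.20 ± 0.26, edgeR adjusted p = 0.00391). VEGFA was at 119.8 and 82.1 CPM against 187.9 and 169.9 CPM (0.93 ± 0.23, adjusted p = 0.0124). ADM was at 109.1 and 89.2 CPM against 141.5 and 220.9 CPM (0.92 ± 0.25, adjusted p = 0.0225), the reverse of its direction in endothelial-like cells. CA9 (2.35, with 4 and 0 UMIs in the red and 30 and 37 in the white zone) was the other higher gene and CA12 the lower one (-2.33, with 20 and 5 UMIs against 7 and 8). PKM, outside the rule, was higher by 1.04. Without the lateral or without the medial red library none of the 5 passed, and DESeq2 called 0. The class was not alike in the zones: COL1A1, the main collagen of fibrous tissue, was at 46546 and 55562 CPM in its red and at 5832 and 18494 CPM in its white zone cells, while COL2A1, the main collagen of cartilage, was at 26.4 and 107.4 CPM in its red and at 693.4 and 426.0 CPM in its white zone cells. The 11 chondrocyte markers together were at 2091 and 2064 CPM in the red and 3199 and 2233 CPM in the white zone. The class rule limits this sum in both zones, as it admits only cells with fewer than 4 of these markers detected. The part of these collagen and marker differences in the 5 calls was not tested. GAPDH (0.57), HIF1A (0.49), LDHA (0.56) and BNIP3 (0.26) were not called within this class.

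**Figure D4:**
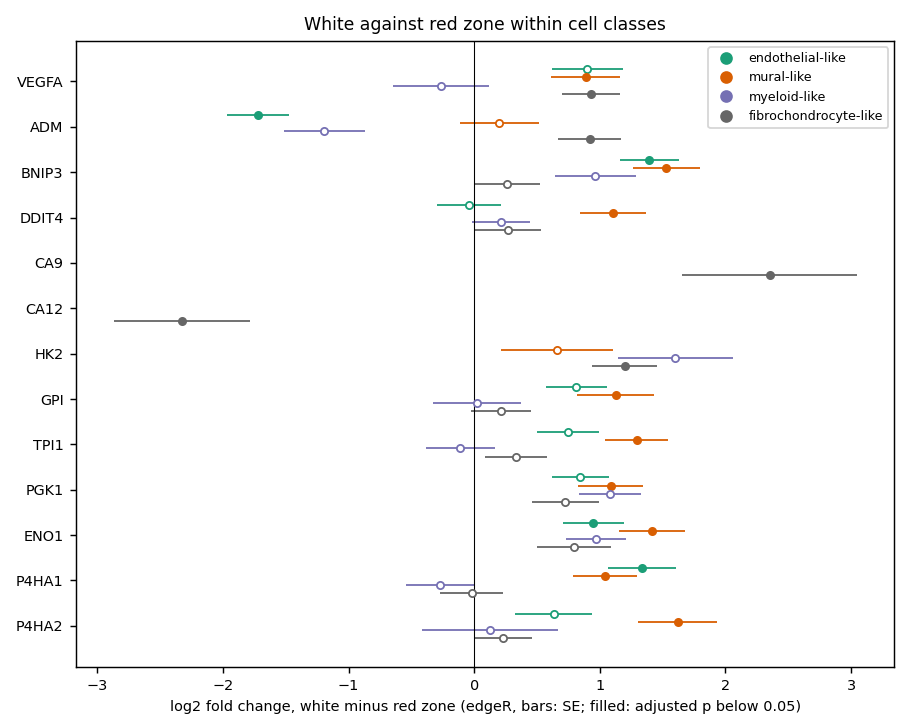
Log2 fold change between white and red zone within 4 cell classes for the members called in at least 1 of them, with the standard error from edgeR as bars (2 libraries a zone). Filled points passed an adjusted p of 0.05: ADM is at -1.72 in endothelial-like and at 0.92 in fibrochondrocyte-like cells, and most filled points above 0 belong to mural-like cells.

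The difference between classes in the zone change was tested in 1 edgeR fit of these 4 classes with an interaction term, added after the data were seen. Against fibrochondrocyte-like cells, the zone change of ADM in endothelial-like cells was lower by a log2 difference of -2.74 ± 0.29 (adjusted p = 2.32e-06). With P4HA1 higher, 2 of 28 members differed for this class, where 5.39% of 9830 genes were called (2.36% higher and 3.03% lower). For mural-like cells 1 member differed, HIF1A, which was lower (4.01% of genes, 1.84% higher and 2.17% lower). For myeloid-like cells 2 differed, ADM and ANKRD37, both lower (1.65% of genes, 0.732% higher and 0.916% lower). Over its alternatives the ADM difference in endothelial-like cells ran from -3.14 to -2.41 and stayed past the threshold. The other 4 were each lost without at least 1 library.

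A finer reading used matrix and unassigned cells with enough UMIs to be thinned to 1000 each, sorted by the number of chondrocyte marker UMIs. Cells with fewer UMIs were left out: in the lateral white library 649 of 1036 unassigned and 1759 of 2304 fibrochondrocyte-like cells were used. The cells of a group share their library, so these values are descriptions without a test. In the lateral white library GAPDH was at 3257 CPM in the 381 cells with 0 marker UMIs and at 9297 CPM in the 1038 cells with 20 or more, and in the medial white library it was at 2354 CPM in 915 and at 5526 CPM in 1200 cells. Of 18 members with at least 20 UMIs in each of these groups, 6 were over 1.5 times higher at the top in both white libraries, as were 4.59% of 2004 such genes. Another 1, NDRG1, was lower by that factor in both, as were 17.3% of such genes, and 11 members lay between.

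The 6 were P4HA2 (99.7 to 305.4 CPM lateral, 97.3 to 358.3 CPM medial), GAPDH, BNIP3 (288.7 to 764.0 and 216.4 to 459.2 CPM), DDIT4 (517.1 to 919.1 and 538.8 to 1128 CPM), P4HA1 (231.0 to 454.7 and 263.4 to 415.8 CPM) and ENO1 (942.3 to 1738 and 1038 to 1822 CPM). All but DDIT4 rose at each of the 4 steps in both white libraries. HIF1A went from 514.4 to 675.3 CPM laterally but from 678.7 to 550.8 CPM medially, and LDHA from 393.7 to 406.6 and from 408.7 to 295.0 CPM. PGK1 kept its level, with ratios of 1.04 and 0.997, and VEGFA had ratios of 0.83 and 0.70. Of the other glycolytic enzymes with enough UMIs, PGAM1 had ratios of 1.34 and 1.22, TPI1 0.95 and 1.36, and GPI 0.91 and 0.96. Summed without GAPDH, the members were 1.41 and 1.31 times higher at the top than at 0.

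White zone cells with 0 chondrocyte marker UMIs still had more of the members than red zone cells with 0. The sum without GAPDH was 5239 and 5832 CPM in the white and 3514 and 3216 CPM in the red libraries. Single cells with no marker UMI among 1000 can still be of any matrix class.

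**Figure D5:**
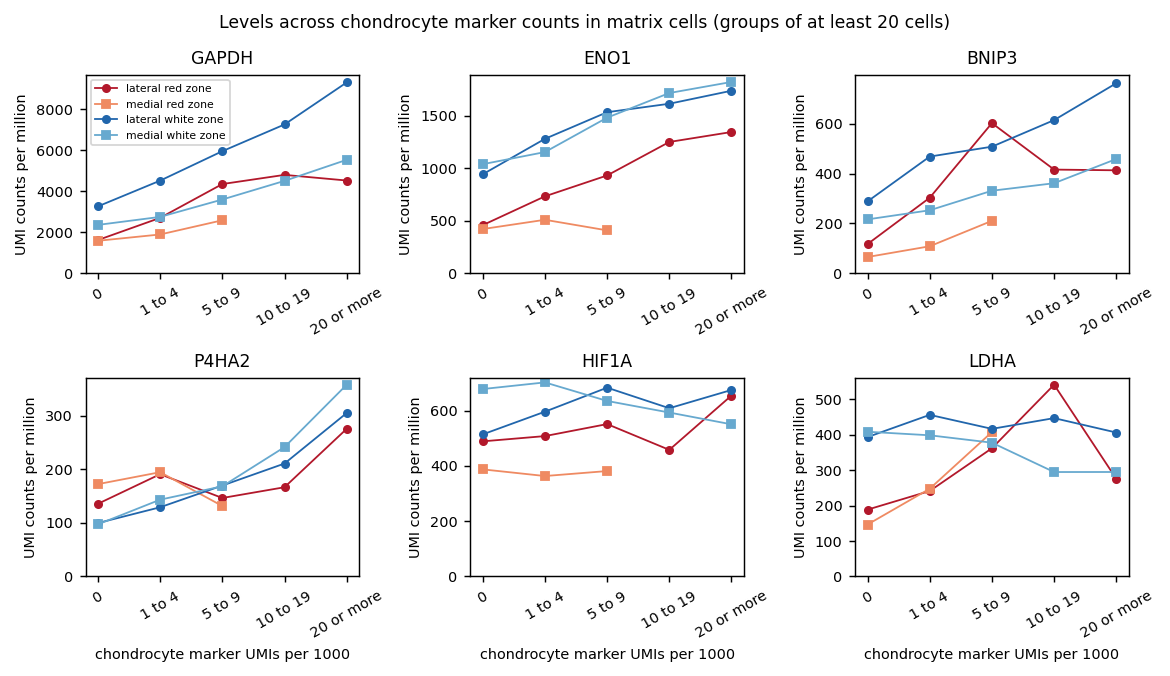
Level of 6 members in matrix and unassigned cells grouped by chondrocyte marker UMIs among 1000 UMIs, in CPM, with 1 line per library (circles lateral, squares medial, reds for the red zone and blues for the white zone, with groups under 20 cells left out). Cells with too few UMIs to thin to 1000 are not included. GAPDH, ENO1, BNIP3 and P4HA2 climb with the marker count in both white zone libraries, while HIF1A and LDHA do not climb in both.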

How the data were processed

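The deposited files hold UMI counts per gene and barcode, made by the authors with Cell Ranger 6.1.2 on Sscrofa11.1, per the submitters' processing notes. Barcodes were kept with at least 500 UMIs and 200 genes and at most 20% mitochondrial UMIs. Scrublet removed 112 lateral red barcodes and called 0 in the other libraries, where it did not work, and removing the highest scores was an alternative. Classes needed 3 vascular or immune markers (lead 2) or 4 matrix markers (3 for fibrochondrocyte-like). Fibroblast-like cells had at most 1 chondrocyte marker, and fibrochondrocyte-like cells fewer than 4 markers of the chondrocyte and of the fibroblast list. Counts were summed per library or class and tested with edgeR 4.0.16 (TMM, filterByExpr, quasi-likelihood, Benjamini-Hochberg over all genes; a call is an adjusted p below 0.05). Zone and meniscus fits had the other factor as second term and 1 residual degree of freedom, class fits had the library as a term, and the interaction fit had 6 residual degrees of freedom. Alternatives were DESeq2 1.42.0, library totals, no low-count filter, no second term, all barcodes, a stricter class rule and leaving out each library. Zone and meniscus fits without 1 library also had no second term. Thinning and tables used scanpy 1.11.5 and numpy 2.4.6. Gene positions are RefSeq's on Sscrofa11.1. Tested on simulated counts, the zone fit recovered 54 of 102 2-fold and 98 of 98 4-fold changes.

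The members, lists and tests were chosen with earlier results of these data known. Values are printed for members called and for HIF1A, EPAS1, VEGFA, CA9, GAPDH and LDHA, and for up to 4 called genes with the lowest p in each pathway list. Some other values (ADM, PKM, ANKRD37, examples of classes) were chosen after being seen.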

Additional observations from a re-analysis of the deposited data

Results flagged for a closer look

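The zone change differed between cell classes for 5 results, by the interaction term of the edgeR fit (white minus red zone, against fibrochondrocyte-like cells). In endothelial-like cells the log2 difference was -2.74 for ADM, which held in every alternative run, and 1.32 for P4HA1 (adjusted p = 0.0135), which was lost without the lateral red library or either white library. In mural-like cells it was -1.16 for HIF1A (adjusted p = 0.0271), lost without either white library. In myeloid-like cells it was -2.22 for ADM (adjusted p = 0.00209) and -4.46 for ANKRD37 (adjusted p = 0.0191), which rest on 8 and 8 and on 1 and 0 UMIs in the white libraries. The myeloid ADM difference was lost without the medial white library, and that of ANKRD37 without the lateral red or either white library. White zone endothelial-like, mural-like and myeloid-like cells held 12.1% to 49.8% of their library's summed chondrocyte marker level, and the part of this in the 5 differences was not tested in the interaction fit.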

How the results depend on the processing

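Of 959 values of single genes recomputed under alternatives, 799 kept direction and side of the threshold, 152 lost their call, 2 gained one and 6 changed sign. Between classes, only genes that the fit with 6 classes alone also called in the same direction were counted. That fit is among the alternatives, so all of its values were kept by selection and are no separate check. The replicate block is the meniscus term in the zone fits and the library term in the class fits. The labels do not say that the libraries of a side share an animal, so they share only a number. Without the replicate block, zone calls over all genes went from 4960 to 4631, members higher within fibrochondrocyte-like cells from 4 to 1, and between classes members lower from 7 to 3 (endothelial-like) and 5 to 3 (myeloid-like), members higher from 4 to 2 and lower from 1 to 0 (mural-like) and higher from 4 to 1 (myeloid-like). Over all genes, higher calls within fibrochondrocyte-like cells then went from 388 to 155. Between classes, lower calls went from 544 to 381 (endothelial-like), 654 to 518 (myeloid-like) and 462 to 301 (mural-like). Higher ones went from 1972 to 1814 (mural-like) and 2145 to 1987 (myeloid-like). Zone calls over all genes were 3275 with DESeq2, 2847 without the lateral red and 2436 without the medial red library. Leaving out each library in turn gave 12 to 17 members higher and 0 to 3 lower over all cells. Of all genes, these fits called 822 to 2364 higher and 1614 to 2794 lower.

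Within classes, members higher in the white zone were 0 (DESeq2), 0 (no chondrocyte marker UMIs) and 6 (no TMM) in endothelial-like cells, where 2 were lower under the stricter class rule. They were 0 (DESeq2), 2 (no TMM), 2 (stricter rule) and 0 to 5 (without 1 library) in fibrochondrocyte-like cells, with 0 (DESeq2), 0 (stricter rule) and 0 to 1 (without 1 library) lower. They were 1 (DESeq2), 1 (no chondrocyte marker UMIs), 0 (stricter rule) and 5 to 8 (without 1 library) in mural-like cells, with 0 to 1 lower. In myeloid-like cells 4 were higher and 1 lower with no TMM, 2 and 2 without the low-count filter, 2 and 2 under the stricter rule, and 0 to 2 and 0 to 1 without 1 library. Between menisci DESeq2 and the fit without filter each called 1 lower, where 26 of 12463 and 162 of 17196 genes were lower. Over all genes, no TMM called 281 of 7036 higher in endothelial-like and 241 of 8645 in fibrochondrocyte-like cells. In myeloid-like cells no TMM called 213 of 5387 higher and 172 lower. Under the stricter rule 447 of 6489 genes were lower in endothelial-like cells, and 40 of 5854 were higher in mural-like cells. In myeloid-like cells that rule called 146 of 5419 higher and 153 lower.

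For classes, members lower were 11 (DESeq2), 2 (no TMM), 15 (6 classes alone) and 5 to 14 (without 1 library) in endothelial-like cells, with 3 to 6 higher. Fibroblast-like cells had 2 to 6 higher without 1 library, and 1 (stricter rule) and 2 (6 classes alone) lower. Fibrochondrocyte-like cells had 11 to 17 higher without 1 library and 1 lower (6 classes alone). Mural-like cells had 2 (DESeq2), 12 (no TMM), 2 (stricter rule), 1 (6 classes alone) and 1 to 3 (without 1 library) higher, and 0 (no TMM), 2 (stricter rule), 6 (6 classes alone) and 1 to 5 lower. Myeloid-like cells had 2 (DESeq2), 7 (no TMM) and 2 to 4 (without 1 library) higher, and 3 (no TMM), 1 (stricter rule), 14 (6 classes alone) and 3 to 12 lower. Calls over all genes moved too. With no TMM, 3986 of 11202 genes were higher in mural-like and 2783 in myeloid-like cells, and 301 were lower in endothelial-like cells. With 6 classes alone, 1985 of 9661 genes were lower in endothelial-like, 1306 in mural-like and 2647 in myeloid-like cells. Without 1 library, 463 to 1364 genes were lower in endothelial-like and 509 to 1653 in myeloid-like cells.

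For differences between classes in the zone change, members higher were 2 (no TMM) and 0 to 2 (without 1 library) in endothelial-like and 1 (DESeq2), 1 (no TMM) and 0 to 2 in mural-like cells. Members lower were 0 to 1 in mural-like, and 1 (DESeq2) and 0 to 2 in myeloid-like cells. With no TMM 372 of 9830 genes were higher in endothelial-like and 199 in mural-like cells. DESeq2 called 208 genes higher in mural-like and 73 lower in myeloid-like cells. Sign changes were P4HA2 in myeloid-like cells (0.029, stricter rule), DDIT4 in mural-like cells (-0.010 without chondrocyte marker UMIs, -0.048 under the stricter rule) and, between menisci, BNIP3 (0.56), GAPDH (0.70) and CA12 (0.33), whose values without 1 library ran from -2.60, -1.70 and -2.13 up to these. Between menisci, the fits without 1 library had no zone term, so side and zone were mixed in these values. The cause of the sign changes in myeloid-like and mural-like cells was not tested. With 2 libraries a zone and 1 residual degree of freedom, changes of about 2-fold were often missed in simulated data.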
